A study of Drosophila melanogaster with 3 samples.

Results

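Chromatin immunoprecipitation followed by sequencing was used to map caup (caupolican), a homeodomain transcription factor of the Iroquois complex, in whole Drosophila melanogaster embryos aged 0 to 24 h, males and females pooled. The embryos were of a transgenic line that carries caup with GFP fused at its C terminus, and the fusion protein was pulled down with an antibody against GFP from sonicated chromatin of 200 to 800 bp. There was 1 group of 3 biological replicates, so no condition was compared with another, and whole embryos mix every embryonic tissue and stage. The regions described here are the peaks of the authors' optimal reproducible set whose summit had, as its nearest annotated transcription start site (TSS), the start of a non-coding RNA (ncRNA) gene at most 1000 bp away on the Ensembl annotation of dm6. There were 247 of them among 6056 optimal peaks, or 4.08% (Wilson 95% interval 3.61 to 4.61). By symbol, 199 lay at genes named lncRNA (long non-coding RNA), 41 at genes named asRNA (antisense RNA) and 7 at other names, of which 5 were Uhg genes and the others were sncRNA:128 and snoRNA:Or-ACA9. The last is a small nucleolar RNA, whose annotated end may be a processing cut rather than a start. Records of miRNA hairpins and mature miRNAs were left out for that reason, a choice made after the list had been seen, and with them the count was 261. The 247 peaks fell on 213 distinct genes, because 26 genes held 2 peaks each and 4 held 3, so peaks of 1 gene are not independent of each other.

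Long non-coding RNAs are transcripts without a recognised protein product, and many start from a promoter shared with, or lying inside, a protein-coding gene. An antisense RNA is transcribed from the strand opposite to another gene. Iroquois proteins bind DNA through a TALE-class homeodomain and pattern the dorsal head, notum, wing veins and other territories of the fly. For comparison, 3409 optimal peaks (56.3%) had a protein-coding TSS as the nearest start within the same distance. These are called coding-start peaks below.

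Windows of 201 bases centred on the summit are printed for 9 of the peaks, from the release 6 assembly (dm6), each 5′ to 3′ on the strand of the ncRNA gene. Capitals mark any match, on either strand, to 1 of the 12 motifs searched, and base 101 is the summit. They were picked after the values had been seen. The first 3 are the strongest peaks of the set, at chrX:12751229-12751429 (plus strand) for lncRNA:CR44619, chr2L:14023985-14024185 (minus strand) for lncRNA:CR31840 and chr3R:29214343-29214543 (plus strand) for lncRNA:CR31044. Next come a peak at a divergent start pair, chr2L:9568646-9568846 (minus strand) for lncRNA:CR44149, and a small nucleolar RNA host, chr2L:9894946-9895146 (minus strand) for Uhg2. The window of lncRNA:Hsromega, the heat shock RNA omega, is chr3R:21296311-21296511 (plus strand), and that of lncRNA:CR43431, which lies in the Iroquois complex region, is chr3L:12653230-12653430 (minus strand). The last 2, asRNA:CR45008 at chr2L:7821332-7821532 (minus strand) and lncRNA:CR43334 at chr3L:628370-628570 (plus strand), carry core promoter motifs that were rare in these peaks.
lncRNA:CR44619: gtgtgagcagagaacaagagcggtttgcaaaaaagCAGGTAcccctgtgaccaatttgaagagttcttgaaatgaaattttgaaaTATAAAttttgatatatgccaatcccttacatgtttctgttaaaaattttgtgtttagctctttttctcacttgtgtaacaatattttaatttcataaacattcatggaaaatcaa
lncRNA:CR31840: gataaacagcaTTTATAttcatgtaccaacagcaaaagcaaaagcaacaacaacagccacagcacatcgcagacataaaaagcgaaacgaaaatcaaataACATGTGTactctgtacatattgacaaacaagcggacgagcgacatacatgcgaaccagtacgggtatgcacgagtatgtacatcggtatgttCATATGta
lncRNA:CR31044: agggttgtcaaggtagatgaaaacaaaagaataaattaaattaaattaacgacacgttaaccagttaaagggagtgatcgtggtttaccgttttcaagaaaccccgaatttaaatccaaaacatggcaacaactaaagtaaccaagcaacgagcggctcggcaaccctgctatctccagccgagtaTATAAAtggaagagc
lncRNA:CR44149: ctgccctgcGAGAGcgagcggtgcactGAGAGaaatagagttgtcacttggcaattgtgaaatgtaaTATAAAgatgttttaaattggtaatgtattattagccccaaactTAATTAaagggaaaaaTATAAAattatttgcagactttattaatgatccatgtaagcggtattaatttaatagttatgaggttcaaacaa
Uhg2: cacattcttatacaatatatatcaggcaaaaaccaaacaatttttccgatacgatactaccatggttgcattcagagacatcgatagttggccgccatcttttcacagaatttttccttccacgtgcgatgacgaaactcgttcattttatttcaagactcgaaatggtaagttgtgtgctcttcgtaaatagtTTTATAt
lncRNA:Hsromega: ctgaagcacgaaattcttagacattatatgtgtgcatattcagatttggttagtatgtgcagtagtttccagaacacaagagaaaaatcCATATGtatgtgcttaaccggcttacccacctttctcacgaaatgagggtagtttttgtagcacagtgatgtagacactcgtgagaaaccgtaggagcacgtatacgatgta
lncRNA:CR43431: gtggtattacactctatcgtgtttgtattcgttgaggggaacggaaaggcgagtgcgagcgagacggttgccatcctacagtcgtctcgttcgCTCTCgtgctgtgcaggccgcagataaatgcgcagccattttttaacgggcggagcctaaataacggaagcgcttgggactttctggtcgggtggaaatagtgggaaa
asRNA:CR45008: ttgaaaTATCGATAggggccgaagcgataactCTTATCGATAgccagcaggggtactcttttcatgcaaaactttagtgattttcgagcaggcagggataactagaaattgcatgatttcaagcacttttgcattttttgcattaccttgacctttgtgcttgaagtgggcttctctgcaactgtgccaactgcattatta
lncRNA:CR43334: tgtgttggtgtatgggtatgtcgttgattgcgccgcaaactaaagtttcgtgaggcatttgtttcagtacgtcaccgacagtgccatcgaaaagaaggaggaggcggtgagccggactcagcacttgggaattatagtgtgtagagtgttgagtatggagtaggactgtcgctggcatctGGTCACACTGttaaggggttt
In lncRNA:CR31840 the palindrome form ACANNTGT, the letters bound by Iroquois homeodomains in vitro, began at window base 101, which was the summit itself and 14 bp downstream of the TSS. The window of lncRNA:CR31044 ended upstream of its start and held TATAAA, the TATA box letters, on the sense strand with its first base 33 bp upstream of the TSS. The window of asRNA:CR45008 held TATCGATA, the DNA replication-related element, at bases 7 and 35, the latter overlapped by GATAAG on the other strand. In lncRNA:CR43334, whose summit coincided with the annotated start, GGTCACAC began 80 bp downstream of it and shared letters with ACACTG. Apart from that of lncRNA:CR31840, none of the printed windows held a match to ACANNTGT, which says only that these letters were absent from those 201 bases.

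The strongest of the 247 peaks was at lncRNA:CR44619 (chrX:12750797-12751712), with a pooled signal value of 3973.5 and place 6 among all 6056 optimal peaks. The signal value is the authors' enrichment statistic on a scale that is not given, and it is used here only to rank and describe peaks within a list. In replicates 1, 2 and 3 its regions had signal values of 1165.84, 1026.29 and 1840.42 and ranks 22, 7 and 6 of 30000. It stood near the top of every replicate. Its summit lay 538 bp upstream of the TSS, and a second peak of the same gene (2343, pooled rank 53, replicate ranks 52, 50 and 67) had its summit 500 bp downstream, in an exon. The interval of lncRNA:Vinr (chrX:12749894-12752350), an RNA of the fly immune response, overlapped that of lncRNA:CR44619 and contained the first summit. The nearest protein-coding start, of CG4004, was 5012 bp from the first summit.

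The peak at lncRNA:CR31840 (chr2L:14023887-14024409) had a pooled signal value of 3589, with 1197.73, 1023.23 and 1474.11 in replicates 1 to 3 and ranks 21, 8 and 11. It was the second strongest of the set and, unlike the first, its summit lay at the start itself, 14 bp inside the exon. A weaker peak of the same gene (signal value 300) and a peak at lncRNA:CR45352 (785) had their summits within 5000 bp of it. At lncRNA:CR31044 (chr3R:29214244-29214654) the pooled value was 2777, with 1053.46, 693.937 and 1045.57 in the replicates and ranks 31, 40 and 44. The nearest protein-coding start downstream, on the same strand, was that of eEF1gamma, a translation elongation factor subunit, 5729 bp away.

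Other strong peaks, named next, lay 1153 to 13957 bp from the nearest coding start, and those at osa lay inside that gene. The peak at lncRNA:CR44339 (chr2R:12985015-12985417; pooled value 2553) had replicate ranks of 49, 45 and 42 and a summit 173 bp upstream of that gene, 4200 bp from the start of Psc, which encodes a Polycomb group protein. In the introns of osa, which encodes a subunit of the Brahma chromatin remodelling complex, 2 peaks sat at ncRNAs that run opposite to it. These were lncRNA:CR46035 (2319; ranks 64, 93 and 47) and lncRNA:CR46036 (1872; ranks 169, 101 and 84), 13957 and 13514 bp from the nearest protein-coding start. At lncRNA:CR45643, upstream of tara (taranis, linked to trithorax group function), there were also 2 peaks, of 2212 and 1522, with replicate ranks of 62, 115 and 53 and of 196, 214 and 164. All of these stood within the first 214 regions of every replicate.

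Of the 12 strongest peaks, 4 had a coding start as well as the ncRNA start within 1000 bp. The summit of Uhg4 (2103; ranks 47, 90 and 133) was 52 bp upstream of this small nucleolar RNA host and 563 bp from the start of Boot on the other strand. The start of lncRNA:enrr is the same base as a start of elav, the neuronal RNA-binding protein gene. The upstream peak there (2087; ranks 103, 61 and 83) is a tie between both genes and was kept as ncRNA by rule. At asRNA:CR45928 (1982; ranks 70, 80 and 142) the start of eIF6, a ribosome biogenesis factor, lay 29 bp from the ncRNA start on the opposite strand, and at lncRNA:CR44149 (1958; ranks 141, 124 and 62) that of brwl lay 105 bp away. The remaining one of the 12, lncRNA:CR43287 (1874; ranks 134, 111 and 115), lay in an intron of CHES-1-like, a forkhead transcription factor gene.

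**Figure D1:**
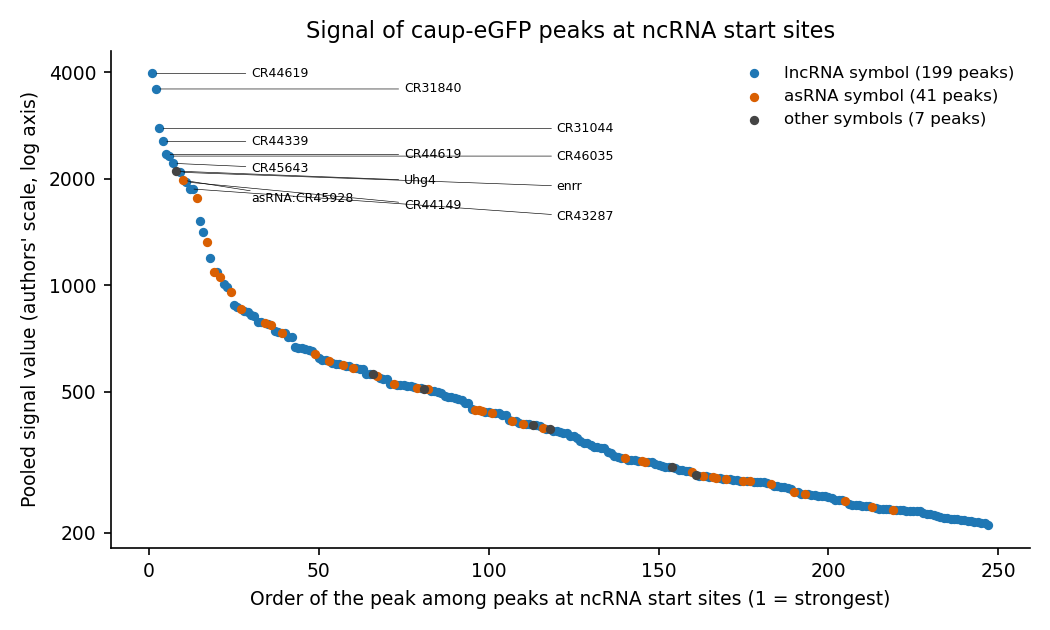
Pooled signal value (authors' scale, log axis) of each of the 247 peaks, ordered from strongest to weakest and coloured by the gene's symbol class, with the 12 strongest named without their lncRNA prefix. The values fall from 3973.5 at lncRNA:CR44619 to 210 at the weakest, and the median is 376.

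Over all 247 peaks the signal value ran from 210 to 3973.5 with a median of 376 and quartiles of 270 and 579. Coding-start peaks had a median of 350 and all optimal peaks one of 333. As a percentile within the optimal set, the ncRNA-start peaks had a median of 58.9 and coding-start peaks 54.2. The upper 3028 optimal peaks by signal held 136 of the 247 (55.1%, 48.8 to 61.1) and 54.4% (52.7 to 56) of coding-start peaks, so the intervals overlapped. Those at asRNA genes had a median signal value of 440 and those at lncRNA genes 354.

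Over the whole pooled list the share of regions at ncRNA starts was similar in 3 rank classes. It was 4.08% in the optimal set, 4.27% (3.87 to 4.71) in the pooled regions that follow down to rank 15000, and 4.05% (3.75 to 4.38) in the rest, down to rank 30000, with overlapping intervals. Over the same ranks the share at protein-coding starts went from 56.3% to 40.5% and 25.3%. Regions below the optimal set did not pass the authors' reproducibility step. The share of ncRNA-start regions in the optimal set did not differ beyond counting error from that in regions the authors did not keep. Inside the optimal set, cut by signal into 5 equal groups from strongest to weakest, it was 5.2% (4.09 to 6.6), 4.87% (3.8 to 6.23), 3.14% (2.29 to 4.28), 3.72% (2.79 to 4.94) and 3.47% (2.57 to 4.65). The share was thus higher in both stronger groups than in the 3 weaker ones, though the intervals of neighbouring groups overlapped.

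**Figure D2:**
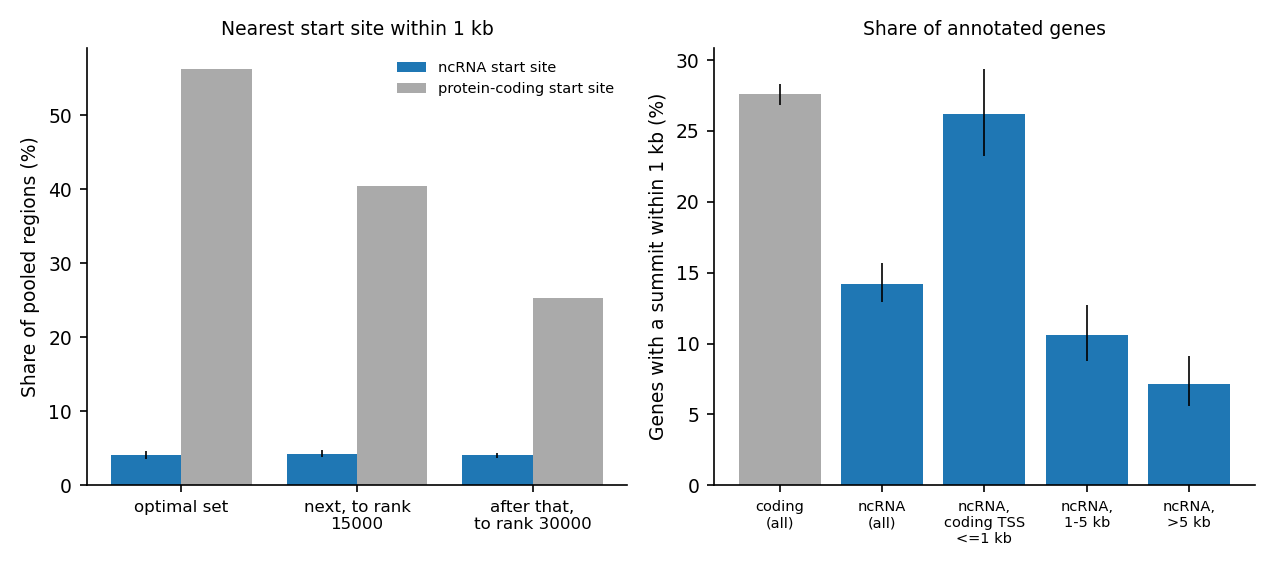
Left, share of the authors' pooled regions (percent) whose nearest start within 1 kb is an ncRNA or a protein-coding start, by rank; right, share of annotated genes (percent) with an optimal summit within 1 kb of a start, by distance of the ncRNA start from the nearest protein-coding start (TSS). Lines are Wilson 95% intervals; ncRNA shares on the left stay between 4.05 and 4.27%, and on the right they go from 26.2% to 7.17%.

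Counted by gene rather than by peak, 359 of 2520 annotated ncRNA genes (14.2%, 12.9 to 15.7) had an optimal summit within 1000 bp of a start, against 3843 of 13945 protein-coding genes (27.6%, 26.8 to 28.3). The share was 18.5% (15.3 to 22.1) for asRNA genes and 13.2% (11.7 to 14.7) for lncRNA genes. It followed the distance to coding starts. Among 768 ncRNA genes with a protein-coding start within 1000 bp it was 26.2% (23.2 to 29.4), whose interval holds the coding value. It was 10.6% (8.8 to 12.7) for 943 genes whose nearest protein-coding start was farther but within 5000 bp, and 7.17% (5.59 to 9.16) for the 809 with none within 5000 bp. A summit near both starts counts for both, so the first of these classes includes summits that are nearest to the coding gene. Of the 359 genes, 213 were themselves the nearest start of a summit.

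By chromosome arm, the share of annotated ncRNA genes that were nearest to a peak was 13.4% (10.4 to 17.1; 54 of 402) on 2R. On 2L, 3L, 3R and X it was 6.98%, 7.76%, 7.07% and 8.86%, and on the small arm 4 it was 2 of 24 genes. The same count for protein-coding genes was 20.3% on 2R between 19.2% and 21.7% on 2L, 3L, 3R and X, and 11.2% (9 of 80) on arm 4. The share of ncRNA genes was highest on 2R. Its interval did not overlap those of 2L, 3L and 3R but did overlap that of X (6.2 to 12.5). As a share of the arm's optimal peaks, ncRNA-start peaks were 5.37% (4.23 to 6.8) on 2R. On 2L they were 4.77% (3.66 to 6.18), on 3L 3.57% (2.69 to 4.71), on 3R 3.27% (2.46 to 4.33) and on X 3.48% (2.51 to 4.8). All of these intervals overlapped that of 2R, and on arm 4 the share was 2 of 20. The strongest peak of 3L was at asRNA:CR45804 (1093; ranks 569, 355 and 291), in an intron of Prps, a nucleotide synthesis enzyme gene, and its summit window held ACANNTGT. That of arm 4 was at asRNA:CR43957 (297; ranks 3600, 4762 and 3345), whose start lay 166 bp from that of ci, the Hedgehog pathway transcription factor.

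Among characterised ncRNAs in a list of 29 names, 25 names matched 26 annotated genes, and 7 of these genes had an optimal summit within 1000 bp. Of those 7, 5 were Uhg genes, which carry small nucleolar RNAs in their introns, out of 7 Uhg genes matched. Uhg4 was the strongest, and Uhg2 (561; ranks 843, 1647 and 1739), Uhg8 (404; ranks 4960, 1679 and 1897) and Uhg5 (391; ranks 2232, 2579 and 3147) were inside the first 6056 regions of every replicate. The peak at Uhg1 (291) had ranks of 2612 and 2093 in replicates 1 and 2, and its summit lay in no region of replicate 3. Their summits lay 33 to 119 bp from the start, and in each of the 5 a protein-coding gene started on the other strand within 1000 bp of the summit. For Uhg3 and Uhg7 the nearest summit was 1993 and 1429 bp away.

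The other 2 listed genes with peaks were lncRNA:flam, the flamenco piRNA cluster that silences transposons in ovarian follicle cells (321; ranks 3106, 3022 and 3348), and lncRNA:Hsromega. The latter had 2 peaks at one of its internal annotated starts, 210 bp and 6 bp upstream, with pooled values of 524 and 216. Their replicate ranks were 3642 and 3710 in replicate 1, and in replicates 2 and 3 both summits fell in the same region, ranked 604 and 18396. Replicate 3 thus gave this start little signal. The dosage compensation RNAs roX1 and roX2 had their nearest summit 5933 and 1455 bp away. In the bithorax complex, bxd and iab8 had theirs 21272 and 20720 bp away.

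In the Iroquois complex, counted from 50 kb before ara to 50 kb after mirr, 1 peak of the set was found, at lncRNA:CR43431 (chr3L:12653200-12653445). Its signal values were 332.821, 161.807 and 245.275 in replicates 1 to 3, with ranks of 423, 1022 and 1221, and the pooled value was 714. It was in the top list of every replicate, highest in rank in replicate 1. The nearest protein-coding start, of mirr, was 40309 bp away.

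A top list is defined here as the 6056 regions of a replicate with the highest signal values, as many as there are optimal peaks. The summits of 172 of the 247 peaks (69.6%, 63.6 to 75) lay in the top list of all 3 replicates, against 62.7% of all optimal peaks and 65.2% (63.5 to 66.7) of coding-start peaks. The interval of the 247 overlaps those of coding-start peaks and of all peaks (61.5 to 63.9). A further 64 were in 2 lists (25.9%, against 26.5% of all optimal peaks). In 1 list were 10 (4.05%, 2.21 to 7.29), against 10.2% (9.5 to 11) of all optimal peaks, and these intervals did not overlap. The peak in no top list was lncRNA:CR43907 (217; ranks 6956, 7896 and 6645), at a start 150 bp from that of tou, a chromatin remodelling gene. By replicate, 214, 220 and 220 of the 247 (86.6%, 89.1% and 89.1%) were in the top list of replicates 1, 2 and 3. Over all optimal peaks these shares were 82.3%, 82.3% and 86.6%. Only in replicate 2 did the intervals not overlap (84.6 to 92.4 against 81.3 to 83.2). In any of the 30000 regions lay 242, 246 and 242 (98%, 99.6% and 98%), against 98.5%, 98.6% and 98% of all optimal peaks.

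Replicate support followed the signal. When the optimal peaks were cut by signal into 5 equal groups, 60 of 63, 55 of 59, 29 of 38, 24 of 45 and 4 of 42 of the ncRNA-start peaks were in all 3 top lists, from the strongest group to the weakest. Over all optimal peaks the shares in the same groups were 96.6%, 93.3%, 79.9%, 37.2% and 6.35%, so the fall was general. In the group with 24 of 45 the ncRNA-start share was 53.3% (39.1 to 67.1) against 37.2% (34.6 to 40), with overlapping intervals. Coding-start peaks of that group had 34.6% (30.9 to 38.4), which did not overlap the ncRNA-start interval. In the remaining groups the intervals of ncRNA-start and coding-start peaks overlapped. The pooled signal contains these replicates, so this is a description of how pooled and replicate ranks relate.

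The median rank percentile of the ncRNA-start peaks within each replicate's 30000 regions was 90.3, 92.1 and 92.1, and that of coding-start peaks was 90.9, 90.6 and 90.4. The difference was -0.58, 1.48 and 1.76 percentile points, with a mean of 0.88 ± 1.28 (SD, n = 3). It was below the spread between replicates, and its sign differed in replicate 1. An exact two-sided sign-flip permutation test over the 3 replicates gave p = 0.5, where 0.25 is the smallest it can give. With 2 replicates the mean ranged from 0.448 without replicate 3 to 1.62 without replicate 1. Across the ncRNA-start peaks found in both lists, the rank correlation of signal values between replicates (Spearman's rho) was 0.719 for replicates 1 and 2 (241 peaks), 0.707 for 1 and 3 (237) and 0.809 for 2 and 3 (241). For coding-start peaks these were 0.669, 0.675 and 0.799, all within a set chosen on pooled rank.

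The replicates parted most at a few peaks. Among peaks of the upper 3028, the 5 with the widest rank spread were each missing from every region of 1 replicate. lncRNA:CR43626 (877) had ranks of 324 and 1220 in replicates 2 and 3 and none in replicate 1. Replicate 1 also had no region over the summits of asRNA:CR45281 (612; ranks 1468 and 545), a peak of asRNA:CR44293 (437; 587 and 1467) and lncRNA:CR44276 (401; 2056 and 1451). For lncRNA:CR44867 (624; ranks 1624 and 957 in replicates 1 and 2) it was replicate 3. A second peak of asRNA:CR44293 nearby (783) had ranks of 940, 587 and 641, and the shared replicate 2 rank shows that 1 region of that replicate covered both summits. Neighbouring pooled summits can therefore take their replicate support from 1 region. Of the 247 peaks, 28 (11.3%, 7.96 to 15.9) overlapped another optimal peak, against 8.97% of all optimal peaks.

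**Figure D3:**
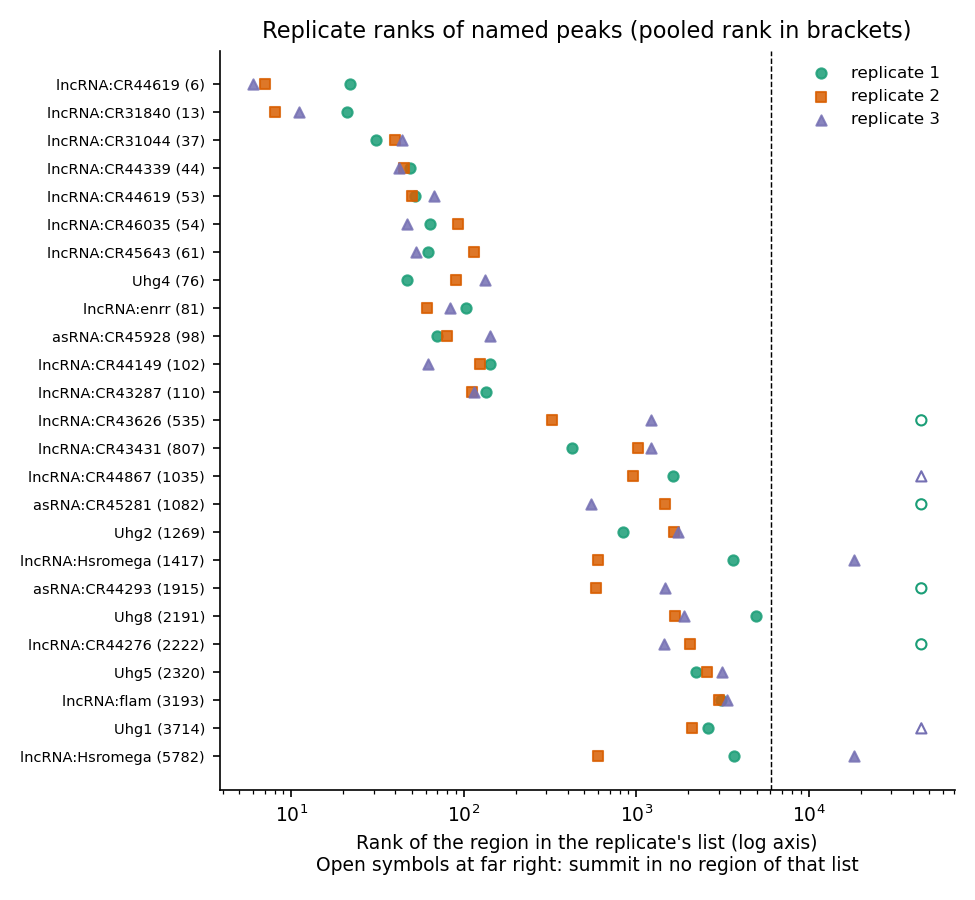
Rank in each replicate's list of 30000 regions (log axis, 1 is strongest) of the 12 strongest peaks, those at characterised ncRNAs, that in the Iroquois complex and the 5 with the widest spread, ordered by pooled rank in brackets; the dashed line is rank 6056. The 12 strongest have all 3 ranks between 6 and 142, and open symbols at the far right mark the 6 cases with no region over the summit, 4 of them in replicate 1.

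Summits lay farther from ncRNA starts than from coding starts. The median distance was 339 bp for the 247 peaks and 116 bp for coding-start peaks. Within 100 bp lay 53 of 247 (21.5%, 16.8 to 27) against 1550 of 3409 (45.5%, 43.8 to 47.1). From there the ncRNA share fell from 13% at 101 to 200 bp to 4.45% at 901 to 1000 bp. In both lower pooled rank classes the share within 100 bp was 18.1% (14.5 to 22.2) and 16.3% (13.6 to 19.4) at ncRNA starts and 41.3% and 26.6% at coding starts. By signal, 26 of the 53 (49.1%, 36.1 to 62.1) were among the upper 3028, against 110 of 194 (56.7%, 49.7 to 63.5) of those farther away, with overlapping intervals. The summit was upstream of the start or on it for 57.5% (51.3 to 63.5) of ncRNA-start peaks and 69.8% of coding-start peaks. It lay outside the ncRNA gene in 156 cases, in its exon in 74 and in its intron in 17. How precisely ncRNA starts are annotated was not tested.

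**Figure D4:**
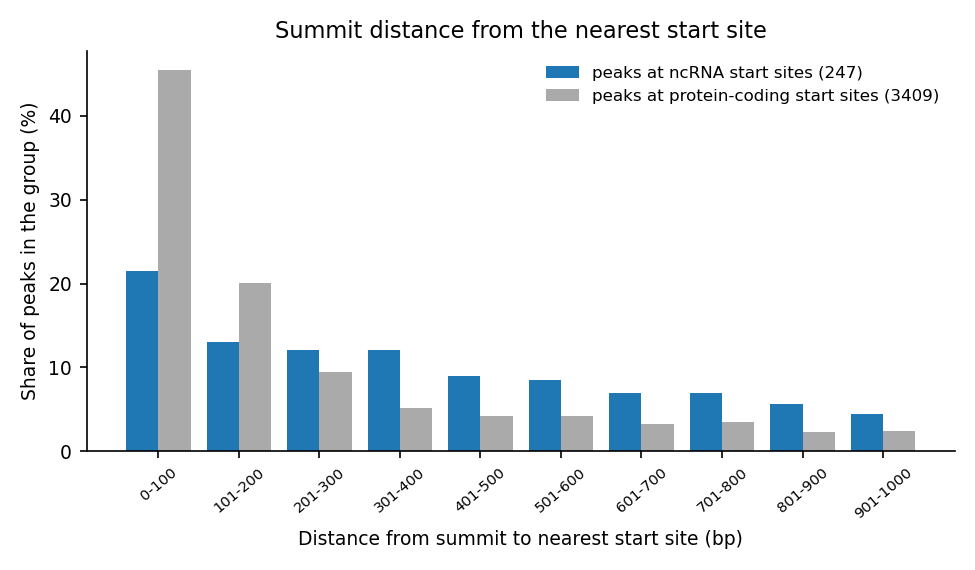
Share of peaks (percent of the group) by distance from summit to the nearest start in steps of 100 bp, for 247 peaks at ncRNA starts and 3409 at protein-coding starts. The first step holds 21.5% of the former and 45.5% of the latter, and the ncRNA bars fall slowly to 4.45%.

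At the edge of the distance limit, the last peaks inside were at lncRNA:CR42719 (992 bp; signal value 429), lncRNA:CR45954 (990 bp; 240) and lncRNA:CR42746 (981 bp; 339). The first ones outside were at lncRNA:CR45809 (1008 bp; 230), lncRNA:CR46110 (1018 bp; 385) and lncRNA:CR44810 (1030 bp; 216). Their signal values were in the same range.

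A protein-coding start lay within 1000 bp of the summit for 70 of the 247 peaks (28.3%, 23.1 to 34.3) and within 5000 bp for 187 (75.7%, 70 to 80.6). The median distance to one was 2067 bp. Of coding-start peaks, 36.7% (35.1 to 38.4) had the start of a second coding gene within 1000 bp, and 4.84% that of an ncRNA. In the 70, the starts were divergent (back to back on opposite strands) in 43, facing each other on opposite strands in 14 and on the same strand in 13. These labels rest on start positions alone, so gene overlap was not tested and a coding start could be internal to its gene. The median gap between divergent starts was 284 bp, and the summit lay between both in 26 of the 43. Where a coding start was near, 28 of 70 summits (40%, 29.3 to 51.7) were within 100 bp of the ncRNA start, against 25 of 177 (14.1%, 9.75 to 20) elsewhere. The rule itself shortens the distance in the former, since the ncRNA start had to be the nearer one. In all 3 top lists were 74.3% (63 to 83.1) of the former and 67.8% (60.6 to 74.2) of the latter, with overlapping intervals.

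After Uhg4, asRNA:CR45928 and lncRNA:CR44149, the strongest divergent pairs were asRNA:CR44429 with gce, a juvenile hormone receptor gene (1766; ranks 216, 97 and 121), and lncRNA:CR42657 with nej, the fly CBP acetyltransferase gene (1410; ranks 237, 276 and 195). A peak at lncRNA:CR30055 (868; ranks 374, 564 and 889) lay beside a start of Sin3A, a corepressor gene. The summits paired with gce and Sin3A lay in introns of those same genes, so these coding starts were internal ones. lncRNA:CR45668, divergent from the cytoplasmic actin gene Act5C, had 3 peaks of 845, 335 and 232. The first had replicate ranks of 507, 562 and 691, whereas the second had 28873, 1735 and 3892, so replicate 1 ranked it near the end of its list.

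The summit lay inside the body of a protein-coding gene for 98 of the 247 peaks (39.7%, 33.8 to 45.9), against 56.9% of coding-start peaks and 63.1% of all optimal peaks. It was intronic in 80 of the 98, in an untranslated exon in 17 and in a coding exon in 1. The host ran opposite to the ncRNA in 72, on the same strand in 25, and on both strands in 1 place with 2 hosts. For asRNA genes 28 of 41 (68.3%) had an opposite host, which their name already implies, and 26 of 41 (63.4%, 48.1 to 76.4) had a coding start within 1000 bp. For lncRNA genes these were 44 of 199 (22.1%) and 39 of 199 (19.6%, 14.7 to 25.7). Within host genes, 3 peaks fell in beat-Ib, an immunoglobulin family axon guidance gene, and 2 each in genes such as InR (the insulin receptor), puc (a JNK phosphatase), kis (a chromodomain remodeller) and ush (a GATA cofactor).

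The nearest protein-coding genes numbered 202, of which 168 had 1 of the peaks, 25 had 2 and 9 had 3 or more. The fullest neighbourhood was that of CG42808 on 2R, with 5 peaks at lncRNA:CR44365 and lncRNA:CR44366 within 5000 bp of one another. Their pooled values were 547, 526, 312, 298 and 225. The other genes with 3 peaks, besides lncRNA:CR44366 and lncRNA:CR45668, were lncRNA:CR45251 (617, 562 and 283), which lay 14857 to 15564 bp from its nearest coding start, and lncRNA:CR43650 (516, 267 and 233). By role, 7 of the 247 peaks (2.83%, 1.38 to 5.73) were nearest to developmental transcription regulators, against 3.4% of all optimal peaks and 1.5% of coding-start peaks. The genes were C15, EcR (the ecdysone receptor), mirr, ush and elav, which the list holds although it encodes an RNA-binding protein. In 4 of the 7 peaks, those at elav and ush, the ncRNA start is the same base as the coding start, and with such ties left out the count was 3 of 241 (1.24%, 0.424 to 3.6). Cytoplasmic ribosomal protein genes were nearest to 1 peak (RpLP2; 0.405%, 0.0715 to 2.26), against 2.32% (1.86 to 2.88) of coding-start peaks and 1.39% of all optimal peaks, and the intervals of the former pair overlap. Chromatin and insulator genes were nearest to 3 (BEAF-32, Psc and osa; 1.21%, 0.414 to 3.51), against 0.743% of all optimal peaks.

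Motif letters were counted on both strands within 100 bp of each summit and in windows of the same length centred 500 bp to each side. ACANNTGT was in 10.9% (7.62 to 15.4) of the 247 windows, 10.8% of coding-start windows, 11.5% of all optimal windows and 10.1% of the flanks of the 247. The interval at the summits of the 247 held all the other shares. In the flanks of coding-start and of all optimal peaks the shares were 8.36% and 8.99%. These were below the summit intervals of those sets (9.77 to 11.9 and 10.7 to 12.3). TATCGATA was in 2 of 247 (0.81%, 0.222 to 2.9) against 6.04% of coding-start and 3.62% of all windows. GGTCACAC, part of the promoter element Ohler 1, was also in 2 (0.81%) against 4.75% and 2.81%. ACACTG, which shares letters with the end of that element, was in 18.2% (13.9 to 23.5) against 19.5% and 18.3%, and in 6.28% of the flanks. Its interval held both of the former shares and not that of the flanks. In the 70 peaks with a coding start within 1000 bp, TATCGATA was in 2 (2.86%, 0.787 to 9.83) and GGTCACAC in 1 (1.43%, 0.253 to 7.66). These intervals overlapped those of coding-start windows (5.29 to 6.89 and 4.09 to 5.52). In the 177 without one, TATCGATA was in 0 (0 to 2.12) and GGTCACAC in 1 (0.0998 to 3.13), and neither interval overlapped.

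CATATG, an E-box with a TA core, was in 11.3% (7.96 to 15.9) of the 247 windows, against 6.45% (5.68 to 7.33) of coding-start windows, 7.56% (6.92 to 8.26) of all windows and 5.26% of the flanks. CAGCTG, an E-box with a GC core, went the other way, with 7.29% (4.66 to 11.2) against 13.2% (12.1 to 14.4) of coding-start windows, 10.7% of all windows and 8.7% of the flanks. No test was made. For 4 of the 12 motifs (these E-boxes, TATCGATA and GGTCACAC) the interval did not overlap that of coding-start windows. In the upper 3028 optimal peaks it did overlap for CATATG (8.09%, 4.58 to 13.9, against 6.26%, 5.25 to 7.46), for CAGCTG (7.35%, 4.04 to 13, against 12.8%, 11.3 to 14.4) and for GGTCACAC (0.735%, 0.13 to 4.05, against 3.94%, 3.14 to 4.92). With a distance limit of 500 bp it overlapped for CAGCTG (10.2%, 6.45 to 15.7, against 14.1%, 12.9 to 15.4). Set against all optimal windows, the interval overlapped for both E-boxes (TA core 6.92 to 8.26, GC core 9.95 to 11.5) and GGTCACAC (2.42 to 3.25). It did not for TATCGATA (3.17 to 4.12). Coding-start peaks held 206 of 219 optimal windows with TATCGATA and 162 of 170 with GGTCACAC. Both motifs were thus mostly confined to coding-start peaks, and their low shares are not particular to ncRNA starts. TATAAA (29.6%), GATAAG, the GATA factor letters (10.9%), TAATTA, a homeodomain core (14.6%), CAGGTA, the Zelda letters (3.64%), GAGAG, the GAGA factor letters (27.9%), and the repeat CACACACA (6.48%) had intervals that overlapped those of coding-start windows. The median GC content was 38.3% at the summits of the 247, 38.8% at coding-start summits and 42.3% in the flanks of the 247.

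TATAAA on the sense strand from 40 to 20 bp upstream, the place of a TATA box, was found at 9 of the 216 ncRNA starts nearest to the peaks (4.17%, 2.21 to 7.73). The share was 2.65% (2.1 to 3.33) of all annotated ncRNA starts, 3.14% (2.59 to 3.81) of starts nearest to coding-start peaks and 6.19% of all protein-coding starts. Genes with such a start included lncRNA:CR31044, lncRNA:Hsromega, Uhg5 and lncRNA:CR43928. The last had 2 peaks, with summits 2312 and 1055 bp from the start of Thor, which encodes the fly 4E-BP.

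**Figure D5:**
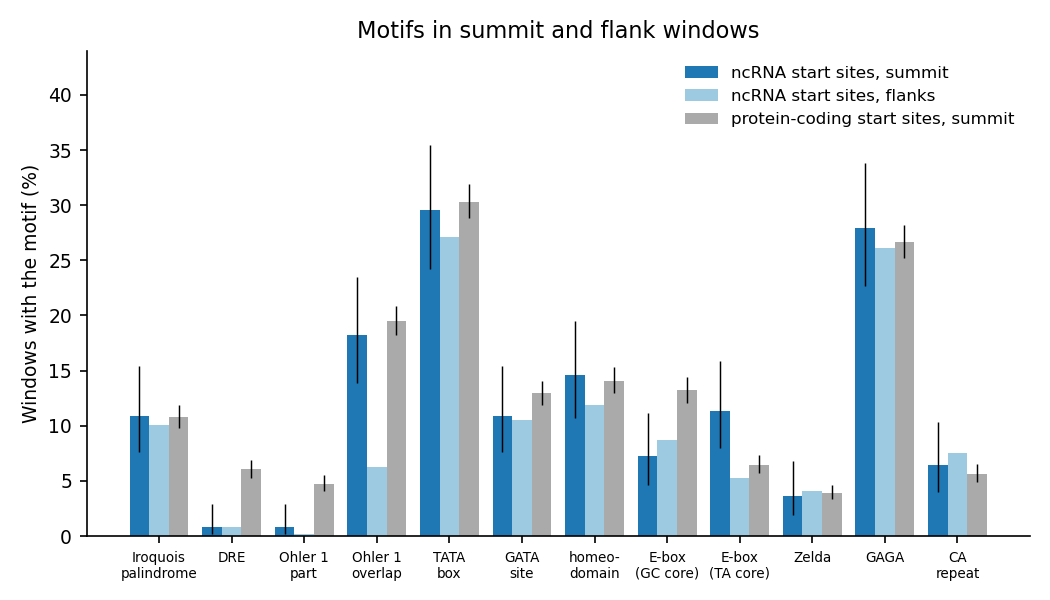
Share of 201 bp windows (percent) that hold each of 12 motifs, for the summits of the 247 peaks, their flanks and the summits of coding-start peaks; lines are Wilson 95% intervals. The DRE (TATCGATA is its core) and Ohler 1 bars are near 0.81% at ncRNA starts and 6.04% and 4.75% at coding starts, and the E-box with a TA core reaches 11.3%.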

How the data were processed

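The authors deposited lists of regions on dm6 for the 3 replicates, for their pooled alignments and for an optimal set kept by irreproducible discovery rate, per the deposited text notes. Each replicate and pooled list holds 30000 regions. The control alignment and the dm3 lists are not analysed here. For the aligner, the peak caller and the cut-off of that step, no name or version is given in the sources used here. The signal value that the authors deposited per region has no stated scale, so it was only ranked. The optimal set equals the 6056 pooled regions of highest signal. Read counts were not part of the lists used, so depth is unknown.

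Summits were assigned to 22876 start sites of 17423 genes (Ensembl release 115, the 5′ end of every transcript on 6 arms). The assembly, release 6, is dm6, and sequences are from its RefSeq copy. Transposable elements and 741 miRNA records were left out, and an ncRNA start won a tie, which touched 6 peaks. Motifs were matched by exact letters. The coding-start peaks served for comparison. Shares have Wilson 95% intervals that cover counting error only. With 1 group, the only test is the sign-flip test over replicates. The replicates are biological per the labels. The assignment was tested on simulated peaks.

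Peaks were named by rule: the 12 strongest, those at characterised ncRNAs, genes with 3 peaks, peaks in no top list, the Iroquois region, the distance edge, the widest rank spreads, the strongest of each arm and the strongest far from coding starts. The strongest divergent pairs, hosts, neighbourhoods, TATA starts and printed sequences were picked after values were seen. The peaks and lists were chosen with earlier results of these data known, and distance steps, gene classes, arm shares and motif intervals under 2 alternatives were added after seeing results. Alternatives were a 500 bp limit, the upper 3028 peaks, merged peaks, 1 start per gene, ties left out, longer top lists, reciprocal overlap, narrower motif windows and each replicate left out. Python 3.11.15, numpy 2.4.6, pandas 2.3.3 and matplotlib 3.10.9 were used.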

Additional observations from a re-analysis of the deposited data

How the results depend on the processing

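Among the values recomputed under another setting, 116 stayed within their limit and 23 moved beyond it. The limit was the counting interval for shares, 1.5 times for the number of peaks and the replicate spread for the median signal percentile. The difference in median rank percentile was judged on sign alone, which never changed. With a limit of 500 bp there were 167 ncRNA-start peaks, 36.5% of these had a coding start within 1000 bp, 31.7% had the summit within 100 bp, and 8.81% of ncRNA genes had a summit. In the upper 3028 optimal peaks there were 136 ncRNA-start peaks, 92.6% of them in all 3 top lists, 36.8% held TATAAA, and 8.53% of ncRNA genes had a summit. Over all optimal peaks, the strongest 3 of the 5 signal groups had 96.6%, 93.3% and 79.9% in all 3 top lists. The TATAAA share of other peaks in the upper 3028 was not counted. For the 247 peaks, the share in all 3 top lists was 90.7% with lists 2 times as long and 49.8% with reciprocal overlap of at least 50%. Without 1 replicate, 76.9 to 80.6% were in both remaining lists, and the difference in median rank percentile ranged from 0.448 to 1.62. That difference was 1.71 with the 500 bp limit and 0.0122 in the upper 3028 peaks, against 0.88 in the main setting. Its size thus depended on the setting, although both shifts were below the SD of 1.28 between replicates. A coding start within 500 bp was found for 17.4% of the 247 peaks. With motif windows of 50 bp to each side, which hold fewer bases, the shares were 0% for TATCGATA, 0% for GGTCACAC, 6.88% for ACACTG, 6.88% for GATAAG, 6.88% for CATATG, 17.8% for TATAAA, 8.91% for TAATTA, 2.83% for CAGCTG, 15% for GAGAG and 1.62% for CACACACA. The miRNA records, an alternative chosen after seeing the data, gave 261 peaks. Other causes were not tested.

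No paired analysis was possible because there was 1 group. Depth is unknown, a control was not analysed, and the precision of ncRNA start annotation limits every distance.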
